A study of Mus musculus with 6 samples.

Results

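In postnatal mouse cardiomyocytes (CMs) overexpressing (OE) YAP5SA, 41 genes that had at most 10 raw read counts in each of the 2 GFP control libraries had at least 40 in each of the 2 YAP5SA libraries, out of 54532 genes counted. The limits themselves were met by 46 genes. Of the 6 genes left out by the rule, Myh1, Myh2, Myh8, Igfbp2 and Atp6v1c2 met the limits and Myh3 did not. Since the GFP and YAP5SA counts chose the 41 genes, their rise in YAP5SA is a description and carries no test. In that contrast 12.8% of the 13323 genes with enough reads for a test were called higher, and nothing is read from this beside a list that the contrast itself picked. The YAP6SA counts played no part in the choice.

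Wildtype ICR mice of 6 d of age received 1e+11 viral genomes of AAV9 under the skin, and every virus drove its cargo from the cardiomyocyte-specific cTnT promoter. The cargo was GFP in the control group, YAP5SA, a YAP in which the serines phosphorylated by LATS are alanines, or YAP6SA, which carries 1 more alanine exchange that disturbs the contact with TEAD. Hearts were taken at 9 d of age, nuclei were pulled down with an antibody to PCM1, and their poly-A RNA was sequenced without strand information. Of the 2 libraries in a group, 1 belongs to batch 1 and the other to batch 2, with 14552847 to 19615627 counts on genes, so that 10 counts stood for 0.510 to 0.687 CPM (counts scaled to the library size) and 40 counts for 2.04 to 2.75 CPM. A gene at 0 counts could have up to 3, which is 0.153 to 0.206 CPM (counting error only).

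YAP is the transcriptional coactivator at the end of the Hippo kinase cascade. When the LATS kinases are active they phosphorylate YAP and hold it in the cytoplasm, and when they are not, YAP enters the nucleus and binds DNA chiefly through TEAD factors. In the heart, YAP activity falls as CMs mature, and constitutively active forms of YAP drive CM proliferation and remodeling of the cytoskeleton.

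The genes were at or near 0 rather than strictly silent in GFP CMs. Only 6 of the 41 had 0 counts in both GFP libraries (Gm47416, Lrtm2, 9430073C21Rik, Gm4349, Sema3e and Gm12539), and 19 had at most 3 counts in each. The median count was 3 in GFP batch 1 and 1 in GFP batch 2, 4 and 5 in YAP6SA, and 61 and 167 in YAP5SA OE CMs. Summed over the 41 genes, the level was 9.03 and 5.07 CPM in GFP, 13.8 and 15.0 CPM in YAP6SA and 223 and 494 CPM in YAP5SA OE CMs. The ratio of YAP5SA to GFP counts, scaled to the library totals, ran from 8.11 for Amot to 436 for Gm2694 with a median of 44.1 over the 35 genes with a count in GFP. For the 6 genes at 0 the YAP5SA level was at least 17.9-fold (Gm4349) to at least 49.7-fold (Sema3e) higher, with 3 counts per GFP library as the floor.

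**Figure D1:**
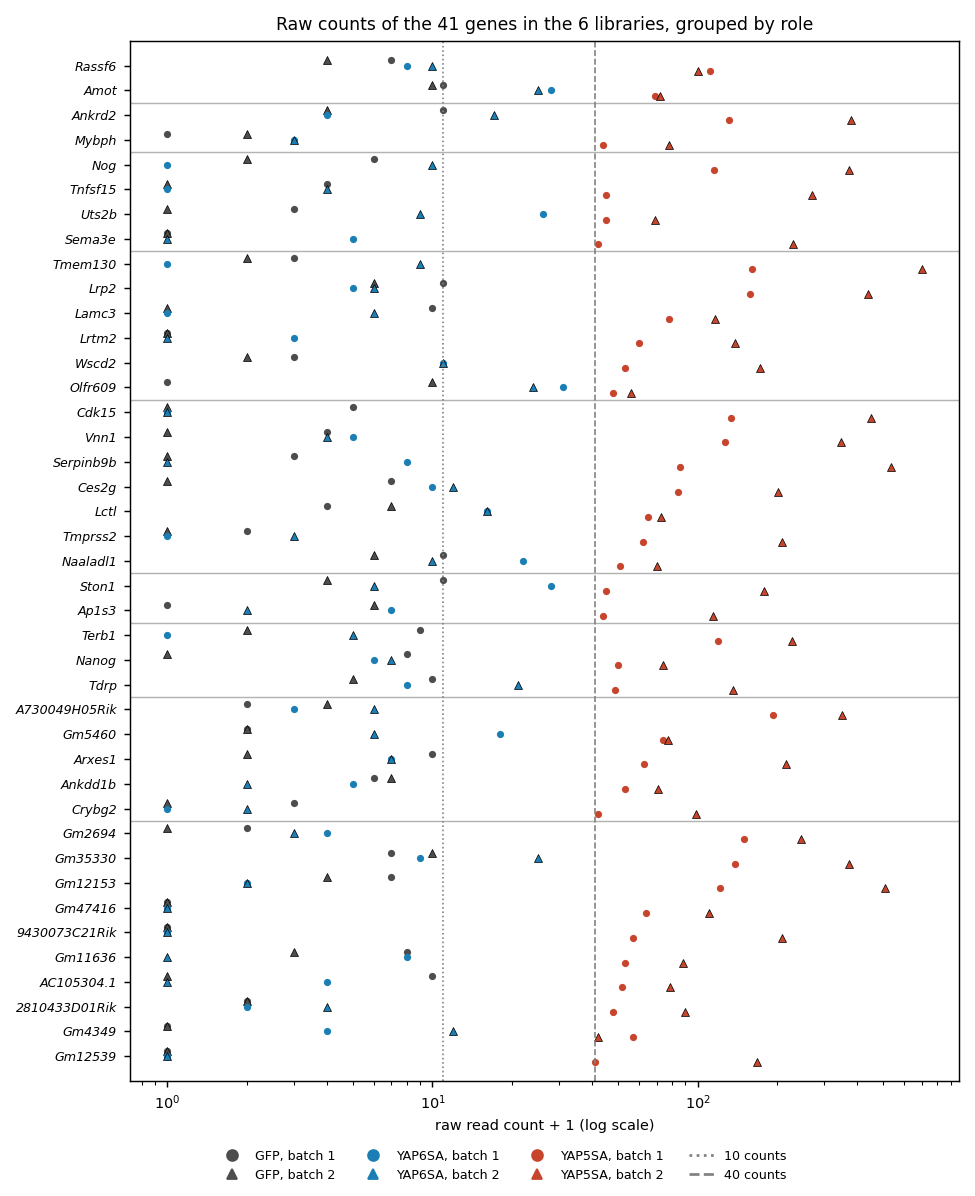
Raw read counts plus 1 (log scale) of each of the 41 genes in the 6 libraries, with circles for batch 1 and triangles for batch 2, in grey for GFP, blue for YAP6SA and red for YAP5SA, and with the genes grouped by role between the grey lines. The vertical lines mark the 10 and 40 counts of the rule. No YAP6SA count passes 30, whereas the YAP5SA counts run from 40 to 699.

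TEAD factors recognise the core CATTCC, which reads GGAATG on the other strand. RefSeq (GRCm38.p6) gave a promoter window of 250 bases before to 50 bases after a start for 28 of the 41 genes (31 windows). CATTCC on either strand was in the windows of 9 genes (2810433D01Rik, Arxes1, Crybg2, Mybph, Olfr609, Ston1, Tmprss2, Tnfsf15 and Uts2b), which is 29.0% of the 31 windows against 14.7% of all 32851 windows of that length. The 5 windows in which the match lies more than 50 bases before the start are shown 5′ to 3′ on the strand of the gene, with the match in capitals. They are Crybg2 (chr4:134068202-134068501, plus strand), Mybph (chr1:134193198-134193497, plus strand), Ston1 (chr17:88626305-88626604, plus strand), Tmprss2 (chr16:97611146-97611445, minus strand) and Tnfsf15 (chr4:63745010-63745309, minus strand). The RefSeq starts used for Crybg2, Ston1 and Olfr609 lie inside the gene as placed by GENCODE M21, which begins upstream of the window. Among windows without a match, the same holds for Amot, Gm2694, Gm12153, Gm5460 and a window of Lrtm2.
Crybg2: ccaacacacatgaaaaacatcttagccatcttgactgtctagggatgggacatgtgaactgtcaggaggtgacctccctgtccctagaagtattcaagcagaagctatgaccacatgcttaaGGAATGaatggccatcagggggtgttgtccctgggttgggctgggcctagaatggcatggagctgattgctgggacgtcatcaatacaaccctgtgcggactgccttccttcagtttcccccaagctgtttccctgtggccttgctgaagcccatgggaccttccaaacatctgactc
Mybph: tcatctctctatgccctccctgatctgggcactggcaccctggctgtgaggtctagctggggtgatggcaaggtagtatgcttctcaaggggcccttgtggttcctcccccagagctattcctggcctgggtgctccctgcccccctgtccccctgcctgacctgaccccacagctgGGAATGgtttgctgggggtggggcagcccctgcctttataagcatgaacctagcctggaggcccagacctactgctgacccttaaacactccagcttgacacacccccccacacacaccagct
Ston1: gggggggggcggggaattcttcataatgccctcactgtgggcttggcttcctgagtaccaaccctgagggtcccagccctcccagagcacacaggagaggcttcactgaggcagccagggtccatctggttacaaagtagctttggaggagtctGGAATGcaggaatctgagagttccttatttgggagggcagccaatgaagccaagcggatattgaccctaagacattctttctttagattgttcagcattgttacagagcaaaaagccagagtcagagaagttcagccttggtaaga
Tmprss2: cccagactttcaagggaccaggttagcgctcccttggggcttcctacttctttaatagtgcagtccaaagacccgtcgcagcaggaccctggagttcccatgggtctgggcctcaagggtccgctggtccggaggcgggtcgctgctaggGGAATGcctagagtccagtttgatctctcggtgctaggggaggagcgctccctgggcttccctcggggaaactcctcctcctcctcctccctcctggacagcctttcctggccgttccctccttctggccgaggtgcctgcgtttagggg
Tnfsf15: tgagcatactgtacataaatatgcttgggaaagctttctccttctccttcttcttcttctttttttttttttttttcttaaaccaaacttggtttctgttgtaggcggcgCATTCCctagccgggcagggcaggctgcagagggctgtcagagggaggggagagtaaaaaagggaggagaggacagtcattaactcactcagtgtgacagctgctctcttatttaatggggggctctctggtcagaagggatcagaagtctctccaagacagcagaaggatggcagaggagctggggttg
The first base of the match lies at -128 in Crybg2, -73 in Mybph, -96 in Ston1, -100 in Tmprss2 and -140 in Tnfsf15, counted from the start. The longer form ACATTCCA, which contains the core, was in 0 of the 31 windows and in 1.35% of all windows. The AP-1 element TGANTCA was in 6.45% of the windows of these genes (Cdk15 and Uts2b) against 7.81% of all, the muscle E-box CAGCTG in 25.8% against 16.3%, the TATA box TATAAA in 16.1% against 13.6%, and the CArG box bound by SRF in 3.23% (Ston1) against 1.63%, all searched on both strands. These matches describe letters in a window, not binding.

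Among the 41 genes, 31 were protein coding, 8 were lincRNAs, 1 was an antisense RNA and 1 a processed pseudogene. The coding share was 75.6%, against 21.9% of the 38770 genes with at most 10 counts in each GFP library and 94.5% of the 12042 genes with at least 40 counts in each YAP5SA library. The genes lay on 17 chromosomes, 5 of them on chromosome 11.

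The Hippo pathway gave 2 genes. Amot encodes angiomotin, a junctional scaffold that binds YAP and promotes its phosphorylation, and lies on chromosome X, 145446425 to 145505181, minus strand. It had 10 and 9 counts in GFP batches 1 and 2, 27 and 24 in YAP6SA and 68 and 71 in YAP5SA OE CMs. The 3 groups did not overlap, the YAP6SA libraries lay between the others, and the YAP5SA to GFP ratio of 8.11 (95% exact interval 5.002 to 13.9, counting error only) was the lowest of the 41 genes. Rassf6, a member of the RASSF family of Hippo pathway adaptors, had 6 and 3 counts in GFP, 7 and 9 in YAP6SA and 110 and 99 in YAP5SA, a ratio of 25.7 (13.3 to 57.1). Rassf6 and Gm4349 were the only members with fewer raw counts in YAP5SA batch 2 than in batch 1. The relatives of Amot were not silent in GFP CMs. Amotl2 had 2619 and 2095 counts in GFP, 2618 and 3104 in YAP6SA and 10245 and 25077 in YAP5SA, with a log2 fold change in YAP5SA of 2.83 (edgeR quasi-likelihood test, FDR 0.000187), whereas Amotl1 had a log2 fold change of 0.52 and did not pass the threshold (FDR 0.141). The log2 fold changes of Rassf1 to Rassf5 and of the MST kinase genes Stk3 and Stk4 lay between -0.84 (Rassf4, FDR 0.0940) and 0.60 (Stk4, FDR 0.0710), and none passed.

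A pair of genes belong to striated muscle. Ankrd2 encodes a muscle ankyrin repeat protein of the titin-based stretch-sensing complex (chromosome 19, 42036000 to 42045110, plus strand). It had 10 and 3 counts in GFP, 3 and 16 in YAP6SA and 130 and 377 in YAP5SA, and per kb of exon its mean level in YAP5SA OE CMs, 13.6 CPM per kb, was the highest of the 41 genes. Both YAP5SA libraries stood far above the rest, and the YAP6SA libraries overlapped those of GFP. Its paralog Ankrd1, a known YAP target, was abundant in all groups, with 13802 and 13385 counts in GFP, 26051 and 26332 in YAP6SA and 51704 and 85888 in YAP5SA. The log2 fold change of Ankrd1 was 2.35 in YAP5SA (FDR 2.0e-04) and 0.87 in YAP6SA (FDR 0.328, edgeR quasi-likelihood test). Mybph encodes myosin binding protein H (chromosome 1, 134193448 to 134201232, plus strand) and had 0 and 1 counts in GFP, 2 and 2 in YAP6SA and 43 and 77 in YAP5SA. The cardiac paralog Mybpc3 had a log2 fold change of -0.92 in YAP5SA (FDR 0.0568), Mybphl of -0.71 (FDR 0.119), and Mybpc1 had at most 1 count in any library. Of the exon bases of Mybph, 49.9% are shared with Adora1 on the opposite strand, which had 115 and 90 counts in GFP and 83 and 123 in YAP5SA, a log2 fold change of 0.05 (FDR 0.935).

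Secreted signals made up 4 genes. Nog encodes noggin, an antagonist that binds BMP ligands outside the cell (chromosome 11, 89300638 to 89302332, minus strand). It had 5 and 1 counts in GFP, 0 and 9 in YAP6SA and 114 and 370 in YAP5SA, a ratio to GFP of 89.4 (40.8 to 245). Of other BMP and activin antagonists, Grem1 had 0 counts in every library, Chrd had a log2 fold change of -0.13 (FDR 0.833) and Fstl1 one of 1.03 (FDR 0.0133, edgeR quasi-likelihood test). Sema3e, a ligand of the plexin D1 receptor that guides axons and vessels, had 0 counts in both GFP libraries, 4 and 0 in YAP6SA and 41 and 228 in YAP5SA. The receptor gene Plxnd1 was present in all groups, with 5374 and 4699 counts in GFP and 4158 and 3944 in YAP5SA, and its log2 fold change of -0.26 did not pass (FDR 0.302). Of the 5 other class 3 semaphorin genes with a test, Sema3c (1.00, FDR 0.0241) and Sema3f (1.44, FDR 0.0170) were higher in YAP5SA and Sema3a, Sema3b and Sema3g did not pass. Tnfsf15, a cytokine of the TNF family, had 3 and 0 counts in GFP, 0 and 3 in YAP6SA and 44 and 270 in YAP5SA. Its receptor gene Tnfrsf25 had a log2 fold change of -0.18 in YAP5SA (FDR 0.686). Uts2b, which encodes a vasoactive peptide related to urotensin II, had 2 and 0 counts in GFP, 25 and 8 in YAP6SA and 44 and 68 in YAP5SA, so that its YAP6SA libraries lay between the other groups without overlap.

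Receptors, other membrane proteins and matrix made up 6 genes. Lrp2 encodes megalin, the large endocytic receptor of absorptive epithelia (chromosome 2, 69424340 to 69586065, minus strand), and had 10 and 5 counts in GFP, 4 and 5 in YAP6SA and 157 and 440 in YAP5SA. Its level per kb of exon in YAP5SA was low, 1.09 CPM per kb, as its exons are 16701 bases long, the most of the 41 genes. Cubn, which encodes the megalin partner cubilin, fell by 1.31 on the log2 scale in YAP5SA (47 and 65 counts against 158 and 129 in GFP, FDR 0.0217, edgeR quasi-likelihood test). Tmem130, which encodes a membrane protein, had 2 and 1 counts in GFP, 0 and 8 in YAP6SA and 159 and 699 in YAP5SA, the highest count of the list, and 25.8 ± 21.02 CPM in YAP5SA (mean ± SD, n = 2 libraries). The spread between those libraries was nearly as large as the mean, while neither came near GFP. Lamc3, the laminin gamma 3 chain of basement membranes, had 9 and 0 counts in GFP, 0 and 5 in YAP6SA and 77 and 115 in YAP5SA. The common chain gene Lamc1 was higher in YAP5SA (0.64, FDR 0.0196). Wscd2 had 2 and 1 counts in GFP, 10 and 10 in YAP6SA and 52 and 171 in YAP5SA. Olfr609, an olfactory receptor gene, had 0 and 9 counts in GFP, 30 and 23 in YAP6SA and 47 and 55 in YAP5SA. Of olfactory and vomeronasal receptor genes with at most 10 counts in each GFP library, 1 of 1953 entered the list. The share over all genes under that limit was 41 of 38770. Lrtm2, at 0 in GFP, had 2 and 0 counts in YAP6SA and 59 and 137 in YAP5SA.

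Enzymes, proteases and a protease inhibitor made up 7 genes. Cdk15, a kinase of the CDK family, had 4 and 0 counts in GFP, 0 in both YAP6SA libraries and 133 and 451 in YAP5SA (chromosome 1, 59256906 to 59352993, plus strand). The YAP5SA to GFP ratio was 162 (62.9 to 596). Of its relatives, Cdk16 was higher in YAP5SA (0.58, FDR 0.0196, edgeR quasi-likelihood test) and Cdk14, Cdk17 and Cdk18 did not pass. Vnn1, the pantetheinase vanin 1, had 3 and 0 counts in GFP, 4 and 3 in YAP6SA and 126 and 347 in YAP5SA. Serpinb9b, a serpin related to the granzyme B inhibitor Serpinb9, had 2 and 0 counts in GFP, 7 and 0 in YAP6SA and 85 and 535 in YAP5SA, and its 18.5 ± 17.9 CPM in YAP5SA (n = 2) was the most uneven level of the list, with a ratio of 5.33 between the 2 libraries. Ces2g, a carboxylesterase, had 6 and 0 counts in GFP, 9 and 11 in YAP6SA and 83 and 200 in YAP5SA, while the neighbouring family members Ces2a, Ces2c, Ces2e and Ces2f had at most 18 counts in any library. Tmprss2, a serine protease of epithelial surfaces, had 1 and 0 counts in GFP, 0 and 2 in YAP6SA and 61 and 207 in YAP5SA. Lctl, of the lactase family, had 3 and 6 counts in GFP, 15 and 15 in YAP6SA and 64 and 72 in YAP5SA. Naaladl1, a peptidase, had 10 and 5 counts in GFP, 21 and 9 in YAP6SA and 50 and 69 in YAP5SA, and its ratio of 8.79 (5.12 to 16.2) was next to the lowest.

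Vesicle traffic was represented by Ston1 and Ap1s3. Ston1 encodes stonin 1, an endocytic adaptor, and had 10 and 3 counts in GFP, 27 and 5 in YAP6SA and 44 and 177 in YAP5SA. Ap1s3, a small subunit of the AP-1 clathrin adaptor, had 0 and 5 counts in GFP, 6 and 1 in YAP6SA and 43 and 113 in YAP5SA, and its paralogs Ap1s1 (0.60, FDR 0.1001) and Ap1s2 (0.56, FDR 0.137) did not pass the edgeR quasi-likelihood test in YAP5SA.

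Genes known from pluripotent and germ cells made up 3. Nanog, a homeodomain factor of the pluripotency network, had 7 and 0 counts in GFP, 5 and 6 in YAP6SA and 49 and 73 in YAP5SA (chromosome 6, 122707489 to 122714633, plus strand). Mouse Nanog has pseudogene copies, and reads that map to several places were not counted, so its level is uncertain. Pou5f1 and Lin28a had 0 counts in every library, Sox2 had at most 6, and Klf4 was present in GFP with 448 and 333 counts and rose by 2.17 on the log2 scale in YAP5SA (FDR 0.00252, edgeR quasi-likelihood test). Terb1, a protein that tethers telomeres to the nuclear envelope in meiosis, had 8 and 1 counts in GFP, 0 and 4 in YAP6SA and 118 and 226 in YAP5SA. Its complex partners Terb2 and Majin had 0 counts in all 6 libraries. Tdrp, a testis development protein, had 9 and 4 counts in GFP, 7 and 20 in YAP6SA and 48 and 135 in YAP5SA.

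The other 5 coding genes were A730049H05Rik, Gm5460, Arxes1, Ankdd1b and Crybg2. A730049H05Rik had the highest count in YAP5SA batch 1, with 1 and 3 counts in GFP, 2 and 5 in YAP6SA and 192 and 348 in YAP5SA. It shares 36.9% of its exon bases with Adamts9 on the opposite strand, which was also higher in YAP5SA (log2 fold change 1.596, FDR 0.00918, edgeR quasi-likelihood test), with 330 and 296 counts in GFP and 554 and 1361 in YAP5SA. Reads in the shared bases were not counted, and those in the other bases carry no strand. Gm5460 had 1 and 1 counts in GFP, 17 and 5 in YAP6SA and 73 and 76 in YAP5SA. Arxes1, an adipocyte-related gene, had 9 and 1 counts in GFP, 6 and 6 in YAP6SA and 62 and 214 in YAP5SA. Its near-identical neighbour Arxes2, 38012 bases away, had 39 and 38 counts in GFP, 47 and 52 in YAP6SA and 100 and 330 in YAP5SA (2.33, FDR 0.00467, edgeR quasi-likelihood test), so the split of reads between the copies is uncertain. In all, 9 of the 41 genes share exon bases with another gene. Beyond those already named, Ankdd1b shares 43.8% with Poc5, Lctl 9.75% with Zwilch (higher in YAP5SA, 1.94, FDR 0.00153) and Crybg2 2.20% with Cd52. The smaller overlaps of Serpinb9b (8.30% with Gm36099), Lamc3 (6.27% with Gm13441) and Gm2694 (4.58% with Gm27016 and 4.11% with Gm19872) were with noncoding genes of at most 11 counts in any library.

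Of the 10 noncoding genes, 6 had ratios from 15.9 for AC105304.1 to 436 for Gm2694, and the other 4 were at 0 in GFP and had lower bounds. Gm2694, a lincRNA on chromosome 8, had 1 and 0 counts in GFP, 3 and 2 in YAP6SA and 149 and 244 in YAP5SA. Gm12153 had 6 and 3 counts in GFP, 1 and 1 in YAP6SA and 120 and 506 in YAP5SA, and Gm35330 had 6 and 9, 8 and 24, and 137 and 372. Gm35330 was the only 1 of these 3 with over 10 counts in a YAP6SA library. Gm47416, 9430073C21Rik and Gm12539 had 0 counts in all 4 GFP and YAP6SA libraries, and 63 and 109, 56 and 207, and 40 and 167 counts in YAP5SA. 9430073C21Rik overlaps Myh2 on the opposite strand, with 10.9% of its exon bases, and lies 818 bases from Myh1. Myh2 likewise had 0 counts in the GFP and YAP6SA libraries, and 347 and 1041 in YAP5SA. The reads counted on 9430073C21Rik carry no strand, so their origin from the antisense RNA or from the Myh2 strand is uncertain. Gm11636 and 2810433D01Rik lie 3250 bases apart on the same strand of chromosome 11.

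YAP6SA OE CMs did not follow the pattern of the list. No gene in the whole table with at most 10 counts in each GFP library had at least 40 in each YAP6SA library, against 46 for YAP5SA. Of the 41 genes, 29 had at most 10 counts in both YAP6SA libraries, 12 had more in at least 1 of them, and 0 reached 40 in both. The split at 10 counts is not given here for all 38770 genes with at most 10 counts in each GFP library. The 29 and 12 thus describe the list and set it apart from no other genes. The highest YAP6SA counts were 30 in batch 1 and 24 in batch 2. For all 41 genes, both YAP6SA libraries were below both YAP5SA libraries in CPM. GFP counts are not compared here, but both limits of the rule, low counts in GFP and at least 40 in YAP5SA, favour this order. The share over all genes tested is not given here, so this is a description only.

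Between YAP6SA and GFP, 0 of the 41 genes were called higher and 0 lower by edgeR's quasi-likelihood test at an FDR of 0.05, while 0.045% of all genes tested were called higher and 0% lower. At an unadjusted p under 0.05, 7 were higher (17.1% of the 41, against 3.86% of all genes tested) and 0 lower (against 2.07%). The same GFP libraries that the rule held at 10 counts or fewer enter this comparison, which favours a higher YAP6SA level, so the excess is not independent of the choice of genes. In CPM, both YAP6SA libraries were above both GFP libraries for 12 genes (29.3%, against 16.8% of all genes tested) and below both for 3 (7.32%, against 16.5%), with the same restriction. All 41 genes passed the filter on low counts through the YAP5SA libraries.

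The 7 genes were Gm5460, Amot, Lctl, Wscd2, Olfr609, Uts2b and Gm4349. The lowest FDR was that of Uts2b, with a log2 fold change of 3.78 (standard error 1.02, FDR 0.497 in edgeR). It was 2.86 without YAP6SA batch 1, and without GFP batch 1 the remaining GFP library was at 0 counts, so that the fitted 6.71 gives no size. Amot, with the highest counts of the 7 in GFP, had 1.34 (standard error 0.54, FDR 0.804). All 7 had more raw counts in both YAP6SA libraries than in either GFP library. Gm4349, at 0 in both GFP libraries, had 3 and 11 counts in YAP6SA and 56 and 41 in YAP5SA. With edgeR's likelihood ratio test, Uts2b (FDR 0.00797) and Gm4349 (FDR 0.0288) were called higher, and with no filter on low counts Uts2b alone was (FDR 0.0252), while DESeq2 called 0 of the 21 genes to which it gave an adjusted p (lowest 0.780). The other 20, Uts2b and Amot among them, had none in DESeq2. The calls of Uts2b and Gm4349 use the GFP libraries that the rule held low, so they are not independent of the choice of genes.

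**Figure D2:**
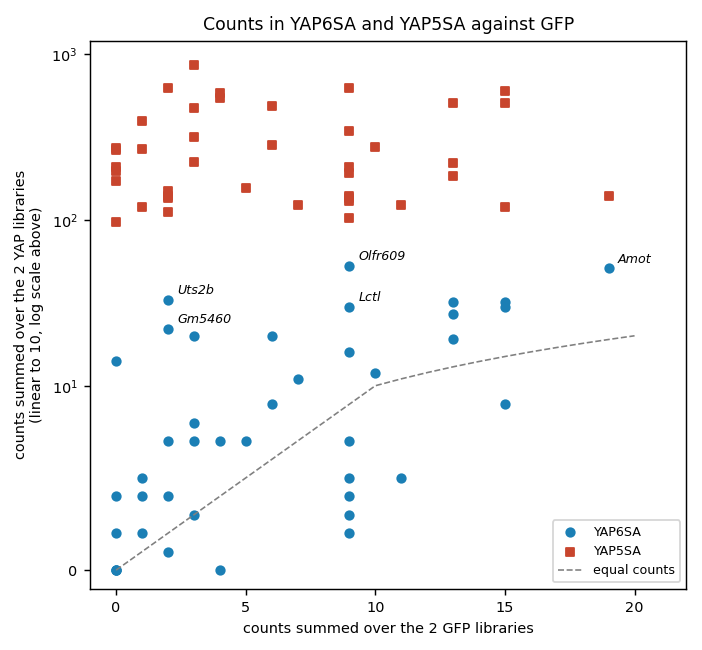
Counts of each gene summed over the 2 YAP6SA libraries (blue circles) or the 2 YAP5SA libraries (red squares), on an axis that is linear to 10 and logarithmic above, against its counts summed over the 2 GFP libraries. The dashed line marks equal counts. The blue points lie on both sides of that line, with Olfr609 and Amot the highest, and the red points lie above all of them.

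The 2 YAP5SA libraries differed from each other in these genes. The level in batch 2 was above that in batch 1 for 35 of the 41 genes in CPM (85.4%). The share was 87.2% of the 1662 other genes called higher in YAP5SA and 51.5% of the 13277 other genes tested. The median ratio of the 41 genes was 2.02 (0.620 to 5.33), with 21 genes over 2. The median ratio was 1.01 over the 13277 other genes tested and 1.36 over the 1662 other genes called higher in YAP5SA. The 41 were chosen by counts in these same libraries and the 1662 by FDR, so the medians are a description only. Serpinb9b (5.33), Tnfsf15 (5.19) and Sema3e (4.71) had the widest gaps, while Olfr609 (0.990), Lctl (0.952), Amot (0.884), Gm5460 (0.881), Rassf6 (0.762) and Gm4349 (0.620) had the same or a lower level in batch 2. With the limits applied to batch 1 alone 64 genes entered, and to batch 2 alone 184, so the 41 are 64.1% of the first set and 22.3% of the second. The batches also differed in sex-linked RNA, in the same way in all 3 groups. Xist, transcribed from the inactive X of females, had 1, 8 and 0 counts in batch 1 of GFP, YAP6SA and YAP5SA and 9350, 10550 and 10320 in batch 2, while the Y-linked Ddx3y had 2369, 2881 and 2400 counts in batch 1 and 1477, 1148 and 1530 in batch 2. Each batch 2 library thus held RNA of both sexes, and the part of this difference in the ratios between the YAP5SA libraries was not tested.

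**Figure D3:**
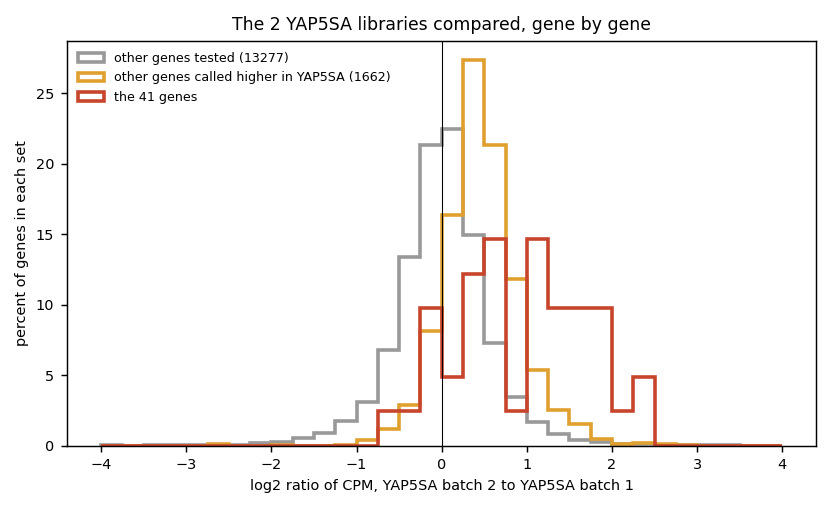
Distribution of the log2 ratio of CPM between the YAP5SA library of batch 2 and that of batch 1, as the percent of genes in each set, for the 41 genes (red), the 1662 other genes called higher in YAP5SA (orange) and the 13277 other genes tested (grey). The 41 genes, chosen by counts in these same 2 libraries, lie farther to the right, with a median ratio of 2.02 against 1.36 and 1.01.

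Markers of cell types were read beside these genes, and in bulk RNA a change in the number of cells of a type and a change in RNA per cell cannot be told apart. Of 12 CM markers, all tested, 1 was called higher (Nppa) and 2 lower (Ryr2 and Pln) in YAP5SA by edgeR's quasi-likelihood test, and the summed level of the list was 55806 and 67107 CPM in GFP, 55171 and 66186 in YAP6SA and 49606 and 35823 in YAP5SA. Of 8 epicardial markers, 2 of 6 tested were higher (Wt1 and Krt19), and the sum was 49.6 and 32.5 CPM in GFP, 67.8 and 34.9 in YAP6SA and 140 and 205 in YAP5SA. Of 10 macrophage markers, 2 of 9 tested were higher (Lyz2 and C1qa), with 73.4 and 97.3 CPM in GFP, 90.0 and 115 in YAP6SA and 109 and 163 in YAP5SA. Wt1 and Krt19 carried the epicardial sum, with 101 and 175 CPM in YAP5SA against 16.2 and 14.2 in GFP, while the other 6 epicardial markers summed to 38.5 and 30.8 CPM in YAP5SA and 33.3 and 18.3 in GFP, lower in YAP5SA batch 2 than in batch 1, and none of the 4 tested passed. The macrophage sum was higher in batch 2 than in batch 1 in all 3 groups. In CPM, the sum of the 41 genes was higher in batch 2 in YAP5SA and YAP6SA and lower in batch 2 in GFP. The YAP6SA sums were close, at 13.8 and 15.0 CPM from 270 and 257 raw counts, and the rule capped the GFP counts. The part of the macrophage RNA in the result was not tested. The 10 fibroblast and 10 endothelial markers had median log2 fold changes of 0.30 and 0.15, none past the threshold, the mural list had 1 higher and 1 lower of 8, and 0 passed of 1 neutrophil, 2 erythroid and 1 Schwann or neuron marker tested. No lymphoid or adipocyte marker had enough reads for a test, at 4.14 to 7.98 and 0.319 to 2.10 CPM in sum.

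None of the genes on the pathway lists read beside the 41 is among them. The GFP limit was met by 0 of the 20 mitosis genes and 2 of the 28 YAP and TEAD targets. No other pathway list had more than 14 genes that met it. As 41 of all 38770 genes under that limit entered, the absence sets the lists apart from no other genes. Of 28 YAP and TEAD targets, 19 of the 25 tested were higher and 0 lower in YAP5SA (edgeR quasi-likelihood test). The median of their log2 fold changes was 1.71 in YAP5SA and 0.08 in YAP6SA. Of 20 mitosis genes, all tested, 19 were higher and 0 lower in YAP5SA. Of 27 signaling ligands and cytokines, 8 of 18 tested were higher and 0 lower. The count was 3 higher and 0 lower of 7 epithelial keratin and junction genes tested, 2 higher and 0 lower of 7 developmental transcription factors, 3 higher and 2 lower of 13 skeletal muscle contraction genes, and 2 higher and 1 lower of 5 genes of myogenic regulation and fusion.

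Within 100 kb, 28 of the 41 genes had a neighbour with enough reads for a test. Of these 79 neighbours, 17 were higher (21.5%, against 12.8% of all genes tested) and 5 lower (6.33%, against 9.18%) in YAP5SA. Without YAP5SA batch 1 the count was 22 higher and 9 lower, against 19.4% and 17.1% of all genes tested, and without YAP5SA batch 2 it was 12 higher and 2 lower, against 8.25% and 4.81%. Aif1l, an actin-bundling protein gene 3600 bases from Lamc3, had 19 and 21 counts in GFP, 71 and 66 in YAP6SA and 270 and 522 in YAP5SA (4.29, FDR 0.000102, edgeR quasi-likelihood test). Fzd2, a Wnt receptor gene 6834 bases from Gm11636, was higher by 2.01 (FDR 0.000216), and Amotl2 lies 38077 bases from Gm47416. Near Tmprss2, the interferon-induced gene Mx2, 3782 bases away, fell by 1.74 on the log2 scale (FDR 0.0198). The 5 neighbours that share exon bases with their gene include Adamts9, Zwilch and Cd52, and of the 74 that share none, 14 were higher.

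**Figure D4:**
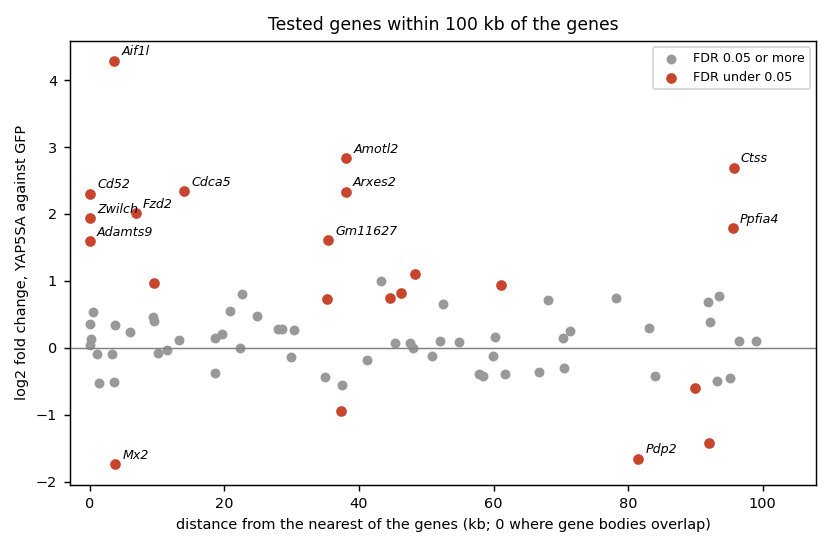
Log2 fold change in YAP5SA against GFP of the 79 tested genes within 100 kb of the 41 genes, plotted against the distance to the nearest of them in kb (0 where the gene bodies overlap), in red where the FDR was under 0.05. Of the 17 genes called higher, 6 lie within 10 kb, where 19 were tested. The farthest is Ctss at 95699 bases.

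The genes closest to the limits were of the same size on either side. Just inside, Gm12539 had 40 counts in the lower YAP5SA library, and Gm4349 and Crybg2 had 41, with 2 and 0 counts of Crybg2 in GFP, 0 and 1 in YAP6SA and 41 and 98 in YAP5SA. Just outside, Fbxw15 had 1 and 4 counts in GFP and 39 and 53 in YAP5SA, Oit3 had 5 and 0 and 37 and 159, and 1500015O10Rik had 8 and 0 and 37 and 88. At the GFP limit, Lrp2, Ankrd2, Amot, Naaladl1 and Ston1 had 10 counts in batch 1, and Arhgap8 (9 and 11 in GFP, 98 and 292 in YAP5SA), 4933428G20Rik (11 and 7, 59 and 132) and Rad18 (12 and 12, 59 and 94) were left outside by 1 or 2 counts.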

How the data were processed

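Nuclear poly-A RNA was measured in 6 libraries, 2 per group. The authors mapped the reads with STAR (version not given in the sources used here) to mm10 and Ensembl 94, and the deposited values are raw counts of reads per gene. Ambiguous and multiply mapped reads were not counted, and no strand was kept. Names, positions and exon lengths came from GENCODE M21 of GRCm38. Genes with a median log2 CPM over 1 in at least 1 group (13323) were tested with edgeR 4.0.16 in R 4.3.3, by the quasi-likelihood test with TMM scaling and terms for batch and group. FDR is the Benjamini-Hochberg adjusted p over these genes. The alternatives were DESeq2 1.42.0, RLE scaling, the likelihood ratio test, no filter, no batch term, 4 libraries, an FDR of 0.1 and leaving out each library. Ratios of summed counts have exact 95% binomial intervals.

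The batch pairs the libraries, since the labels make the replicate number the batch number. Deviations from the group means correlated across genes by 0.368 (GFP with YAP6SA), 0.101 (GFP with YAP5SA) and 0.176 (YAP6SA with YAP5SA). The labels do not say from how many animals a library comes, and the batch 2 libraries hold RNA of both sexes, so p-values measure only the spread between these libraries. On simulated counts for YAP6SA against GFP (13323 genes), the test recovered 100 of 100 genes changed 4-fold and 67 of 100 changed 2-fold. There were 4 false calls. The changed genes were drawn only from genes with higher GFP levels than any listed gene (highest mean 0.541 CPM, Amot). The recovery therefore does not show how often a change would be found in genes as low in GFP as those of the list.

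The genes, the lists and the tests were chosen with earlier results of these data known. The rule gave counts by library for the 20 genes with the highest lower YAP5SA count, the 10 with the highest lower YAP6SA count, the 3 nearest each limit and genes called in YAP6SA. Other members, relatives and neighbours were chosen for values by library after their values were seen.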

Additional observations from a re-analysis of the deposited data

How the results depend on the processing

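Of the 41 genes, 0 were called lower in YAP6SA under any alternative run, and 0 higher except 1 with no filter on low counts and 2 with the likelihood ratio test. The GFP limit of the rule favours calls of higher and works against calls of lower. DESeq2 gave an adjusted p for 21 of them. The count over all genes (6 higher, 0 lower) was 109 and 36 with no filter, 54 and 28 with the likelihood ratio test, 40 and 15 with DESeq2, 0 and 0 with no replicate block and 198 and 78 in a fit of the 4 GFP and YAP6SA libraries. Leaving out 1 library gave 6 to 156 higher and 0 to 57 lower, with 151 and 56 without YAP5SA batch 1, 156 and 57 without YAP5SA batch 2, and 11 and 1 without GFP batch 1. The cause was not tested. Where a library was left out, the lone library was assumed to vary like the others. The fit without the replicate block called 0 of the 41 genes, as the paired fit did. The log2 fold change of Tdrp was 0.84, and ran from -0.21 (without GFP batch 2) to 2.06 when 1 library was left out.

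The number of genes was 22 with at most 5 counts in GFP, 95 with at most 20, 121 with at least 20 in YAP5SA and 14 with at least 80, and 64 or 184 on batch 1 or batch 2 alone, as the limits themselves set. With counts scaled to the mean library total it was 48. Under the alternatives for YAP6SA, 28 to 34 of the 41 had at most 10 counts. Within 10 kb, 6 of 19 neighbours were higher. The neighbour distances and the fits without a YAP5SA library for them were chosen after seeing the data. Counts of 3 or fewer cannot be told from 0 at this depth.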

Other observations

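The opposite pattern was rare. With the limits exchanged, 3 genes had at least 40 counts in each GFP library and at most 10 in each YAP5SA library. They were Gm37435 (48 and 47 counts in GFP, 37 and 47 in YAP6SA, 6 and 0 in YAP5SA), Olfr1033 (56 and 50, 109 and 104, 0 and 6) and Gm6445 (54 and 41, 16 and 15, 5 and 0). For YAP6SA, 1 gene did so, Snai3, which encodes a zinc finger factor of the Snail family and had 60 and 42 counts in GFP, 2 and 5 in YAP6SA and 14 and 2 in YAP5SA. These genes were picked by their counts and carry no test.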
